A study of Homo sapiens with 58 samples.

Results

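The receptor tyrosine kinases KIT, PDGFRA, PDGFRB, CSF1R, FLT1 and KDR and the ligands KITLG, PDGFA, PDGFC and CSF1 were followed across 58 human cell lines labelled as breast cancer. These 10 genes, 6 receptors and 4 ligands, are 10 of the 19798 genes that the array measured with a probe set naming a single gene, and each was read from whichever of its probe sets had the greatest mean level over the lines. All lines were untreated and were grown under the conditions their vendor advises, and total RNA was amplified, labelled with biotin and hybridised once per line. There is 1 group, baseline, with 1 array for each line, so error in the tests is the scatter among lines and not among replicates. The labels give neither tumour subtype nor tissue of origin beyond breast cancer. MDAMB435S with its derivatives M4A4 and NM2C5, and MT3, are reported elsewhere not to come from breast tumours. Other lines may also lack a tumour origin, as the HMT3522 pair described below does at its start. Origins were not checked line by line, MCF12A, MCF102A and SVCT included. High levels given below are thus those of the named line, and a tumour source is not implied. For tests, 14 lines of common origin were averaged into 6 sets from textbook knowledge of their names (AU565 with SKBR3, EFM192A with B and C, MDAMB435S with M4A4 and NM2C5, MB157 with MDAMB157, HMT3522S1 with HMT3522T42, and VP229 with VP267), which with the 44 other lines gave 50 units.

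The receptors are close relatives. KIT, PDGFRA, PDGFRB and CSF1R belong to the class of receptor tyrosine kinases with immunoglobulin-like domains and a split kinase domain, and FLT1 and KDR are receptors for vascular endothelial growth factor (VEGF) of a neighbouring class with the same build. Each is switched on when a dimeric ligand pairs receptor chains, which then phosphorylate one another and recruit adaptors, phosphatidylinositol 3-kinase, phospholipase C gamma and SRC family kinases. In the breast, KIT is known from luminal progenitor cells, the PDGF receptors from fibroblasts and pericytes, CSF1R from macrophages, and FLT1 and KDR from endothelium, while their ligands can be made by epithelial cells.

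Several of these genes sit side by side. In the GRCh38.p14 gene order PDGFRA, KIT and KDR follow one another on chromosome 4, and CSF1R and PDGFRB are neighbours on chromosome 5. The 250 bases before the RefSeq start of KIT, PDGFRA (which has 2 entries) and PDGFRB are shown because these 3 receptors varied most and because both PDGF receptors were high in some lines. They are printed 5' to 3' on the gene's strand, with build GRCh38.p14, and capitals mark the motifs CCAAT and GGGCGG on either strand. The TATA box TATAAA, which 10.7% of all windows hold, was searched on both strands and was in none of these 4 windows; the same held for the E-box forms, the palindrome CACGTG (6.34% of all windows) and its variant CAGGTG (17.5%).
KIT, chr4:54657707-54657956, plus strand: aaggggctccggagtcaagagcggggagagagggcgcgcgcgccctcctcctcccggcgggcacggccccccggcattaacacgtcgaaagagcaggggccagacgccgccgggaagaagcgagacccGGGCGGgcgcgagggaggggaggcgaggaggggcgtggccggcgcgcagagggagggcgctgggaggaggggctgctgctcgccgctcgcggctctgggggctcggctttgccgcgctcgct
PDGFRA entry 1, chr4:54229043-54229292, plus strand: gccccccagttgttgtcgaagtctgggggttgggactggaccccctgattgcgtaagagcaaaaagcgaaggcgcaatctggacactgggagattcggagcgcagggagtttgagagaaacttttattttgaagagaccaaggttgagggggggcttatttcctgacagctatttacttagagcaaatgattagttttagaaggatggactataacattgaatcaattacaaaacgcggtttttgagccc
PDGFRA entry 2, chr4:54233710-54233959, plus strand: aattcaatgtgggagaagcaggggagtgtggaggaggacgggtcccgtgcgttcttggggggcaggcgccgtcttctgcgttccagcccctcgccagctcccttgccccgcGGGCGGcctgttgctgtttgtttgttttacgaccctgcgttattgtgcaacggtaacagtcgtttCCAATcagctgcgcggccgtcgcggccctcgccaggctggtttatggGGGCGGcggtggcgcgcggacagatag
PDGFRB, chr5:150155846-150156095, minus strand: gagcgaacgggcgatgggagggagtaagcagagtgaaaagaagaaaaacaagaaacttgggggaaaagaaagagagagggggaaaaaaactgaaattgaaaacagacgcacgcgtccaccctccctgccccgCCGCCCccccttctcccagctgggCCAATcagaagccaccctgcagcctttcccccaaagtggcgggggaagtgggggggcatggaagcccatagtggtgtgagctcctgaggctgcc
The KIT window held 34 CG dinucleotides, more than 93.2% of 35116 windows of 250 bases, and 1 GGGCGG. The first PDGFRA window held 8 CG and none of the motifs, and the second held 25 CG, 1 CCAAT and 2 GGGCGG. The PDGFRB window was poorer in CG, with 9, against a median of 11 over all windows, and held 1 CCAAT and 1 GGGCGG. Of all windows, 32% held CCAAT and 42.6% held GGGCGG, so both are common letters and a match is a description only. RefSeq windows were matched for 8 of the 10 genes.

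Across the series, the median log2 intensity of an array was 5.37 at the lowest and 5.58 at the highest, and 609 probe sets named for viruses, which measure background here, had a 95th percentile of 5.59. A level above its own array's median is called "above the median" below, and 14651 genes that passed this in at least 3 units were called detected. The 10 genes were all detected. Levels of different genes come from different probe sets and are not set against one another.

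The 4 lines HS362T, HS579MG, HS605T and HS739T had low levels of the epithelial genes that are high in most lines of the panel, so slopes, list counts and likenesses that rest on them are given with and without them. The mean of 9 fibroblast genes was 13.13 in HS605T and HS579MG, 13.03 in HS739T and 12.92 in HS362T, against a panel median of 5.38, all 9 genes being above the median in each line. Their epithelial means, from 4.82 to 5.19, were the 4 lowest of the panel. HS578T (fibroblast 13.09, epithelial 5.60) and FR2 (12.01 and 5.52) had the same pattern, and MDAMB157 (10.53 and 5.74) came next. Whether these lines hold tumour cells was not tested.

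By the probe sets used, the receptors were low or at background in most lines and high in a few, whereas 3 of the ligands were present in nearly every line. KIT and PDGFRA were each above the median in 21 of 58 lines, CSF1R in 14, KDR in 11, PDGFRB in 10 and FLT1 in 4. KITLG and PDGFA were above it in 57 lines each, PDGFC in 55 and CSF1 in 46. Other probe sets gave 21 and 56 lines for KITLG, 57 for PDGFA, 46 for PDGFC and 25, 12 and 57 for CSF1. Those of PDGFRA gave 12 and 21. The counts, and those of ligand beside receptor below, thus hold for the probe set used. No receptor was above the median in 18 lines and a single receptor in a further 18, while HS362T and HS579MG had 5 of the 6. The SD over the 50 units was at least 1 for 7 of the 10 genes, against 34.2% of detected genes, and the exceptions were CSF1R (0.95), KDR (0.96) and FLT1 (0.69). With the mean of a gene's probe sets in place of one of them, 6 of the 10 genes had an SD of at least 1, since that of CSF1 was then 0.88 in place of 1.86. Another FLT1 probe set gave FLT1 an SD of 1.27. The SD of PDGFRA was 3.19, above that of 99.2% of detected genes, that of KIT was 2.76 (97.6%) and that of PDGFRB was 2.41 (95%).

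**Figure D1:**
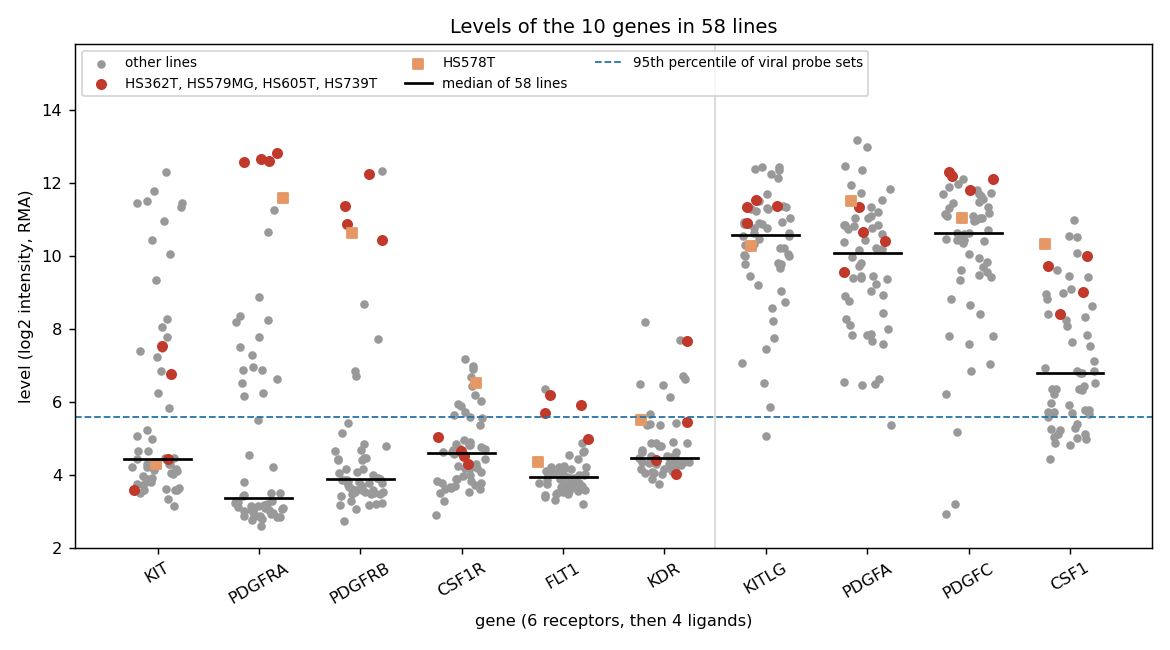
Level (log2 intensity) of each of the 10 genes in 58 lines, 1 point per line, with the median over lines as a bar, the 4 lines HS362T, HS579MG, HS605T and HS739T in red and HS578T as a square. The 5 marked lines fill the top of PDGFRA, between 11.58 and 12.80, and most lines lie under the dashed background line of 5.59 for every receptor. Heights are not comparable between genes, which have different probe sets.

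The scatter between lines can be set against lines of common origin. With these 6 sets as the measure of error (8 residual degrees of freedom), limma's F test found that KIT (adjusted p = 0.000321), PDGFRA (0.0153), PDGFA (0.0155), CSF1 (0.0221) and FLT1 (0.0403) differed among units, which is 5 of the 10 genes where 41.3% of all detected genes were called. The FLT1 call is a description only, since FLT1 was counted as detected through SW527, HS739T, HS579MG and HS362T alone. PDGFRB (0.326), CSF1R (0.348), KDR (0.301), KITLG (0.201) and PDGFC (0.535) did not pass. This error holds both technical scatter and real divergence of cultures, and 1 set decides some of the results: without MB157 and MDAMB157 the PDGFRB test gave an adjusted p of 0.00248, and without the MDAMB435 set the PDGFC test gave 0.0325 while PDGFRA (0.06), PDGFA (0.0555) and FLT1 (0.0842) no longer passed. KITLG passed without HS362T, MB157 and EFM192A (0.00622), and so did PDGFRB (0.00172), while FLT1 did not (0.0573). With the mean of probe sets CSF1 did not pass (0.0656). Neighbours in the order of lines never differed by more than the 95% limit that the sets give, for any of the 10 genes. For KIT that limit was 2.23, so the 8 highest lines cannot be placed in an order. The same holds for the 12 highest of PDGFRA (limit 5.21) and the 14 highest of PDGFRB (7.62). Among the set lines KIT was above background only in MB157, MDAMB157 and EFM192C, and PDGFRA only in MB157, MDAMB157, HMT3522T42 and EFM192A. The error of these 2 genes is thus mostly scatter near background. Whether their high levels scatter more was not tested. Orders of lines given below are of measured levels only.

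KIT, the receptor for stem cell factor, was high in 10 lines and at background in most of the others. Its level ran from 3.15 in MFM223 through a median of 4.43 to 12.28 in MB157. The highest lines were MB157 (12.28), MT3 (11.76), HCC70 (11.51), HCC38 (11.45), CAL148 (11.43), HCC1187 (11.34), MDAMB157 (10.94), ZR7530 (10.44), HCC1143 (10.04) and CAMA1 (9.32). These 10 lines stood apart from the 37 lines at background, with 11 lines from HCC1806 (8.27) to MDAMB361 (5.84) in between. The mean of 19 epithelial markers was between 10.44 and 11.28 in 9 of the 10, near or above the panel's median of 10.57, and 5.74 in MDAMB157. Of all 58 lines, 32 (55.2%) had an epithelial mean of 10.44 or more. Over the 50 units the slope of KIT on the epithelial score was 0.02 (SE 0.40; limma, adjusted p = 0.981). The score's low and high units were a second term in that fit, so this slope is within those groups.

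High KIT occurred with and without keratinocyte-type basal markers. The mean of 4 basal genes (KRT5, DSC3, DSG3 and TRIM29) was 11.65 in HCC38, 10.99 in HCC70, 10.18 in MB157 and 9.08 in HCC1143, against a panel median of 5.6. It was 4.41 in MT3, 4.6 in CAL148, 4.49 in ZR7530 and 3.73 in CAMA1, all below that median. The gene for the oestrogen receptor, ESR1, was at 11.86 in ZR7530 and 12.24 in CAMA1, among the KIT-high lines, and at 3.95 in MT3. Over the 50 units, the slope of KIT on the basal score was 0.36 (SE 0.25; limma, adjusted p = 0.646) and its slope on ESR1 was -0.11 (SE 0.24; adjusted p = 0.87), in log2 units per log2 unit. Each of these fits also had the low and high units of its term as a second term.

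KIT is also the marker gene of mast cells and melanocytes, so their other genes were read in the same lines. Of 4 measured mast cell genes, HDC, FCER1A and HPGDS were not above the median in any line, and CPA3 was above it in 4 lines. CPA3 was 10.11 in CAL120, 9.37 in HS578T, 7.54 in FR2 and 6.21 in MDAMB157, where KIT was 7.46, 4.28, 8.04 and 10.94, so 3 of the 4 had KIT above the median. The part of this in the KIT level was not tested. The lines with high melanocyte genes were those of the MDAMB435 set, with means of 11.84 in NM2C5, 10.28 in M4A4 and 8.70 in MDAMB435S against a panel median of 5.24. In those 3 lines KIT was at background, between 3.71 and 4.05.

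KITLG, the gene of stem cell factor, was above the median in 20 of the 21 lines with KIT above it. Its level ran from 5.05 in COLO824 through a median of 10.58 to 12.44 in CAMA1 and DU4475. The exception was COLO824, where KIT was 7.38 and KITLG at background. Among the lines with the most KIT, KITLG was 7.05 in MB157, 7.44 in HCC38 and 6.50 in HCC1187, which are 3 of the 5 lowest KITLG levels of the panel, but 10.75 in MT3, 10.93 in HCC70 and 12.44 in CAMA1. The KIT fit had the unit's group (29 low, 21 high) as a second term, and within the groups KITLG had a slope of -0.19 on KIT (SE 0.15; adjusted p = 0.994). No gene among the 9 others was called in that fit, in either direction, where limma called 0.00683% of all genes (1 of 14650) and 4.86% had an unadjusted p under 0.05; among the 9 genes 0 had. PDGFRA, the neighbour of KIT, had a slope of 0.14 (SE 0.31; adjusted p = 0.994).

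**Figure D2:**
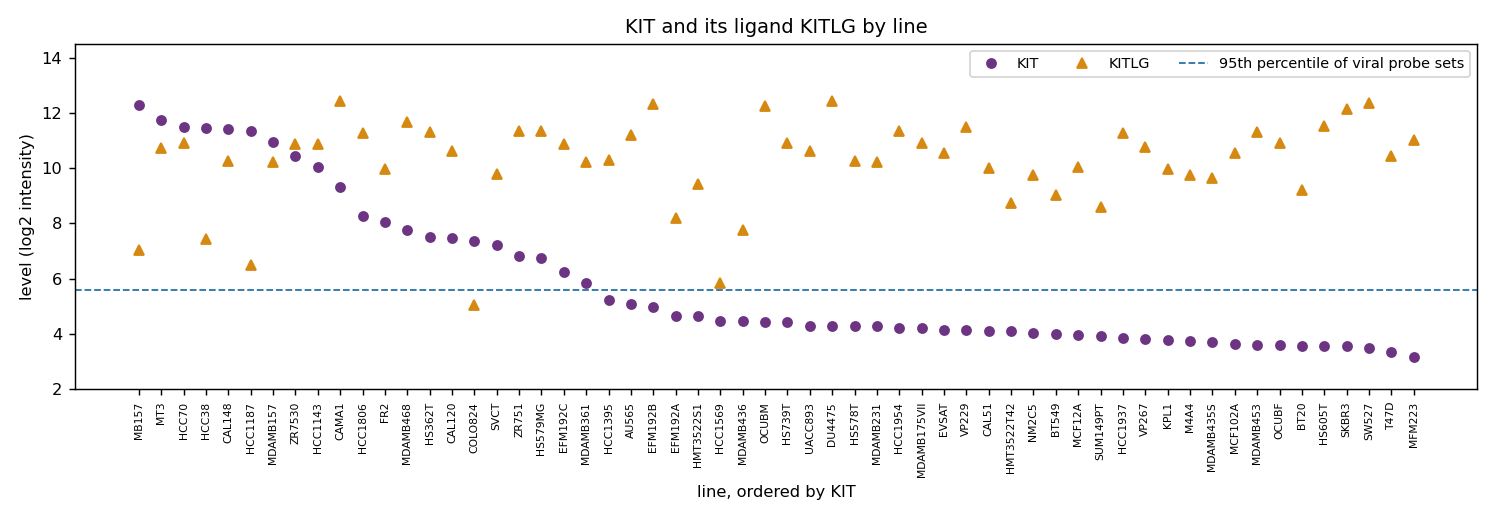
Level (log2 intensity) of KIT (circles) and KITLG (triangles) in each of 58 lines, ordered by KIT, with the background of viral probe sets as a dashed line. KITLG is above background in every line but COLO824. The low KITLG lines MB157, HCC38 and HCC1187 have high KIT, and the vertical distance between the symbols has no meaning, since the probe sets differ.

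PDGFRA, the PDGF receptor that binds PDGF-A and PDGF-C dimers, was highest in 5 lines with low epithelial markers. Its level ran from 2.60 in MFM223 through a median of 3.35 to 12.80 in HS362T. HS362T (12.80), HS739T (12.65), HS579MG (12.59) and HS605T (12.57) lay close together, and HS578T followed at 11.58. The next lines were HCC1187 (11.24), MB157 (10.66), HMT3522T42 (8.86), HCC70 (8.35), MDAMB157 (8.25) and HCC1395 (8.19). HCC1187, MB157 and HCC70 were not like the HS lines in their markers: their epithelial means were 10.81, 10.89 and 11.25, and their fibroblast means 5.06, 5.29 and 4.98.

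PDGFRB, the receptor for PDGF-B and PDGF-D, was above the median in 10 lines. Its level ran from 2.73 in OCUBF through a median of 3.87 to 12.33 in MDAMB157. The 10 were MDAMB157 (12.33), HS362T (12.25), HS579MG (11.35), HS739T (10.88), HS578T (10.63), HS605T (10.42), FR2 (8.67), CAL51 (7.73), HMT3522T42 (6.83) and MDAMB231 (6.69). With the limit of 7.62 that the sets give, they cannot be placed in an order. All 10 had epithelial means of 7.89 or less. FR2 and MDAMB231 had PDGFRB without PDGFRA, which was 3.09 and 2.85 there, while HCC1187, MB157 and HCC70 had PDGFRA with PDGFRB at 4.46, 3.47 and 3.85.

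Over the 50 units each PDGF receptor rose on the other, and neither slope passed the test without the HS lines. Each fit held the unit's group of the receptor (28 low and 22 high for PDGFRA, 40 low and 10 high for PDGFRB) as a second term. On PDGFRA, PDGFRB rose by 0.91 (SE 0.11; limma, adjusted p = 3.93e-08), and on PDGFRB, PDGFRA rose by 1.56 (SE 0.27; adjusted p = 7.36e-05). Without the 4 lines HS362T, HS579MG, HS605T and HS739T these slopes were 0.56 (adjusted p = 0.298) and 1.45 (adjusted p = 0.161). Leaving out HS578T too, a choice made after its levels were seen, gave 0.26 (adjusted p = 0.95) and 1.61 (adjusted p = 0.167). The slope of PDGFRB on PDGFRA was thus smaller in each of these fits, while that of PDGFRA on PDGFRB stayed near its value in all units. Both receptors were above the median in 8 lines, PDGFRA alone in 13 and PDGFRB alone in 2. In these bulk samples, fewer cells of a type and less RNA per cell cannot be told apart.

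**Figure D3:**
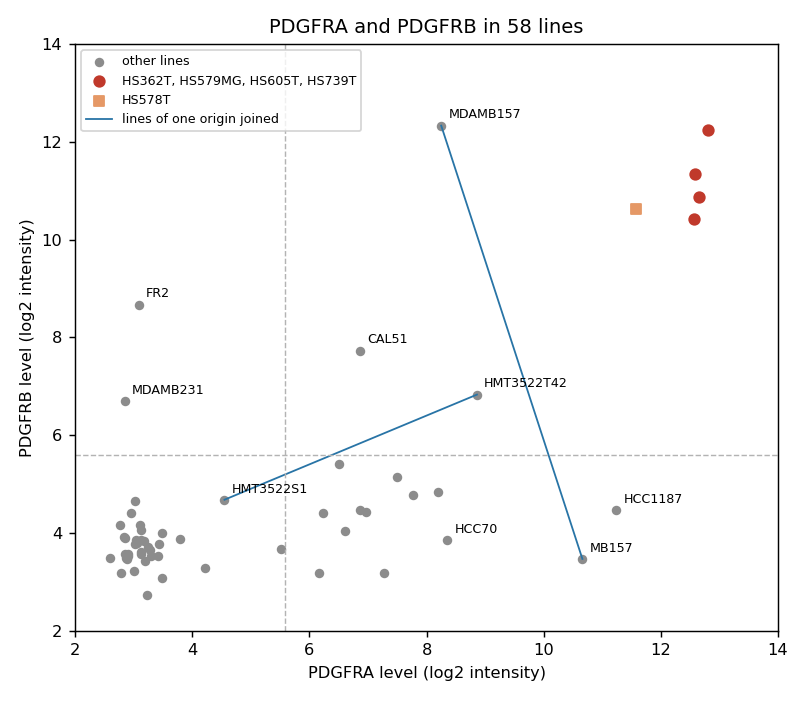
PDGFRB against PDGFRA (log2 intensity) in 58 lines, 1 point per line, with HS362T, HS579MG, HS605T and HS739T in red, HS578T as a square, background levels dashed and lines of one origin joined for 2 sets. The red points and the square occupy the upper right corner, and MB157 and MDAMB157 lie far apart in PDGFRB, at 3.47 and 12.33.

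FLT1, a VEGF receptor that also binds placental growth factor, passed the filter on low levels through SW527, HS739T, HS579MG and HS362T alone, and without the 4 HS lines it was not detected. Its slopes of 0.18 on PDGFRA (SE 0.05; adjusted p = 0.00679) and 0.34 on PDGFRB (SE 0.08; adjusted p = 0.00308) are therefore given as a description only. With the 2 most outlying units of PDGFRA or PDGFRB left out its slopes were 0.11 (adjusted p = 0.265) and 0.29 (adjusted p = 0.0934). The PDGFRB slope was 0.23 (adjusted p = 0.195) without HS362T, MB157 and EFM192A. Apart from FLT1, the other PDGF receptor was the 1 gene of the 10 called in each fit, where the fits called 15.3% (PDGFRA) and 6.57% (PDGFRB) of all genes. Of the ligands, CSF1 (0.29, SE 0.13; adjusted p = 0.107), PDGFC (0.25, SE 0.11; 0.134) and PDGFA (0.05, SE 0.13; 0.854) did not pass against PDGFRA. The numbers of genes called fell from 2243 to 8 (PDGFRA) and from 962 to 26 (PDGFRB) when the 4 HS lines were left out.

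Over all 50 units, fibroblast, pericyte and epithelial genes moved with the PDGF receptors. Against PDGFRA, 8 of 9 fibroblast genes (median slope 0.94) and 4 of 7 pericyte genes (0.31) rose and 13 of 19 epithelial genes fell (median slope -0.60), where 6.17% of all genes rose, 9.14% fell and the median over all genes was -0.02. Against PDGFRB, 8 of 9 fibroblast genes (median 1.27) and 4 of 7 pericyte genes (0.49) rose and 6 of 19 epithelial genes fell (median -0.66), where 2.98% of all genes rose, 3.58% fell and the median over all genes was -0.03. Without the 4 HS lines, an alternative added after the data were seen, none of these genes was called against PDGFRA (median slopes 0.49 for 9 fibroblast, 0.31 for 6 pericyte and -0.35 for 19 epithelial genes). Against PDGFRB, 3 of the 9 fibroblast genes (median 1.51), 0 of 6 pericyte genes (0.75) and 0 of 19 epithelial genes (-0.75) were then called. The counts without the HS lines stand beside the few genes of the whole array, given above, that those fits called. As 7 pericyte genes were tested with the HS lines and 6 without, that list held a gene detected only through them. The pericyte counts over all 50 units are therefore a description only. The part of these genes in the receptors' slopes was not tested. Against the epithelial score itself, the mean distance of the 19 markers from their medians, PDGFRB fell by 1.07 per unit of score (slope -1.07, SE 0.24; limma, adjusted p = 0.00154), alone among the 10 genes, in a fit that called 13.9% of all genes. PDGFRA had -0.95 (SE 0.37; adjusted p = 0.0811). The score's low and high units (19 and 31) were a second term in that fit. PDGFRA passed in 3 of 16 alternative settings (limma, smallest adjusted p = 1.61e-05), so a call of PDGFRB alone depends on the setting. Without the 4 HS lines the PDGFRB slope was -0.40 (adjusted p = 0.345).

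**Figure D4:**
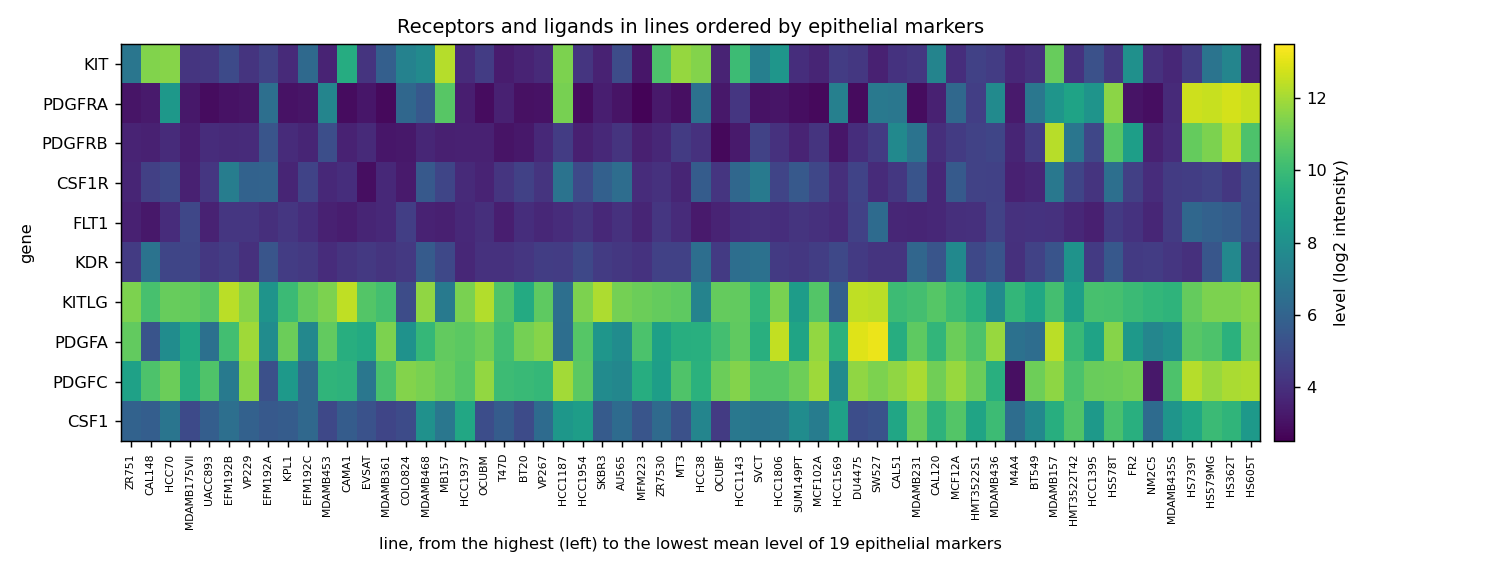
Level (log2 intensity, colour) of the 10 genes (rows) in 58 lines (columns), ordered from the highest to the lowest mean of 19 epithelial markers. High PDGFRA and PDGFRB gather at the right end, with HCC1187, MB157 and HCC70 as PDGFRA-high lines at the left, while 9 of the 10 lines with the most KIT have an epithelial mean of 10.44 or more and MDAMB157 far to the right has KIT at 10.94.

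The ligands of PDGFRA were widespread. PDGFA ran from 5.35 in CAL148 through a median of 10.06 to 13.16 in SW527, with DU4475 (12.98), HCC1806 (12.47) and MDAMB157 (12.34) next, and UACC893 (6.55), HCC1187 (6.49) and BT549 (6.45) the lowest but CAL148. It was above the median in all 21 lines with PDGFRA above it. PDGFC, a ligand activated by removal of its CUB domain, ran from 2.93 in M4A4 through a median of 10.61 to 12.28 in HS739T, with HS605T (12.17), HS362T (12.10) and MDAMB231 (12.09) next. It was above the median in 20 of the 21, the exception being EFM192A, with PDGFRA at 6.50 and PDGFC at 5.17. HCC1187, the epithelial line with the most PDGFRA, had high PDGFC (11.96) and low PDGFA (6.49).

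The PDGFRB ligands were outside the 10 genes but in the wider list. PDGFB was above the median in 40 lines but in only 3 of the 10 with PDGFRB, and it was not above it in HS362T, HS579MG, HS605T, HS739T, HS578T, MDAMB157 or HMT3522T42. PDGFD was above the median in 7 of the 10, and highest in CAL51 (10.28). Of the 8 measured genes of the ligand list, VEGFC, a lymphatic growth factor, rose with PDGFRA (0.62; adjusted p = 0.00971) and PDGFB fell (-0.39; adjusted p = 0.00934); 0 of 8 were called against PDGFRB. The receptors FLT3, FLT4, NRP1 and NRP2 gave 0 of 4 in the fits on PDGFRA, PDGFRB and KIT. Of all genes these fits called 15.3%, 6.57% and 0.00683%, so the counts of such short lists set neither list apart. NRP1, a co-receptor for VEGF, was above the median in 51 lines with its peak of 11.92 in HS605T, NRP2 in 30 with 10.20 in M4A4, FLT4 in all 58 within a narrow range (6.38 to 7.96), and FLT3, the haematopoietic relative of KIT, in 9, with 7.95 in EVSAT.

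Among 24 detected genes of the shared signalling route, 5 were called against PDGFRA, where 15.3% of all genes were, so the share is near the background. PTPN6, a phosphatase that dampens KIT and CSF1R signalling, fell (-0.61; adjusted p = 0.000827), as did the adaptor CRKL (-0.07; 0.0352). The ubiquitin ligase CBLB (0.30; 0.00701), the docking protein DOK1 (0.28; 0.0198) and the transcription factor STAT5A (0.23; 0.0291) rose. Against PDGFRB only PTPN6 was called (-0.71; adjusted p = 0.0102), where 6.57% of all genes were called, and against KIT none of the 24 was (0.00683% of all genes). The median slope of the 24 was 0.02 against PDGFRA and -0.01 against PDGFRB. Without the 4 HS lines none of the ligand and signalling genes named here passed (adjusted p from 0.67 for PDGFB to 0.999 for DOK1 against PDGFRA, and 0.425 for PTPN6 against PDGFRB).

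CSF1R, the macrophage colony-stimulating factor receptor, had a shallow range. It ran from 2.90 in EVSAT through a median of 4.59 to 7.18 in EFM192B, with SVCT (6.97), MDAMB157 (6.89), HCC1187 (6.67), HS578T (6.51) and AU565 (6.42) next. The 14 lines above the median all had CSF1 above it. Its second probe set was not above the median in any line (r = 0.69 with the first over 58 lines). Of the 10 macrophage genes read beside it, CD163, LYZ, AIF1 and PTPRC were not above the median in any line. CD14 and CD68 were above it in 34 lines each, FCER1G in 22, CSF3R in 3 (9.24 in VP229) and ITGAM in 2 (6.33 in HCC1937). TYROBP was above it in 57, but within a narrow range near background (5.48 to 6.37). The part of these genes in the CSF1R level was not tested. The mean of the 10 macrophage genes reached 5.17 at most, in MDAMB436. The CSF1R fit had no group term and called 0 of the 9 other genes where 0.0137% of all genes were called. CSF1 had a slope of 0.73 (SE 0.26; limma, adjusted p = 0.243) and KDR of 0.46 (SE 0.13; adjusted p = 0.162), both with an unadjusted p under 0.05, as had 11.8% of all genes.

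CSF1, its ligand, ran from 4.43 in OCUBF through a median of 6.78 to 10.97 in MDAMB231. MCF12A (10.55), HMT3522T42 (10.51), HS578T (10.33) and MDAMB436 (10.06) followed. These 5 lines all had epithelial means below the panel's median (MDAMB231 7.55, MCF12A 7.02, MDAMB436 6.26, HMT3522T42 5.65 and HS578T 5.60). On the epithelial score CSF1 had a slope of -0.46 (SE 0.20; adjusted p = 0.113), and on ESR1 of -0.43 (SE 0.14; adjusted p = 0.115). Both fits had the term's low and high units (19 and 31 for the score, 21 and 29 for ESR1) as a second term. The slopes are thus within those groups, and over 16 alternative settings CSF1 passed in 1 against the score (limma, adjusted p = 1.48e-07). No gene of the 10 was called against ESR1, where limma called 0.86% of all genes; 5 of the 10 (CSF1, PDGFC, KDR, PDGFRA and CSF1R) had an unadjusted p under 0.05, as had 16.2% of all genes. Against the basal score 0 of 10 were called, and 0 had an unadjusted p under 0.05, where 0.28% of all genes were called.

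KDR, the main signalling receptor for VEGF-A, ran from 3.74 in HCC1937 through a median of 4.45 to 8.17 in HMT3522T42. MCF12A (7.70), HS362T (7.65), CAL148 (6.69), SVCT (6.62), HCC1143 (6.48), HCC38 (6.47) and MDAMB231 (6.13) were the next. HCC38, HCC1143 and CAL148 were also among the 9 lines with the most KIT, and 7 of the 11 lines with KDR above the median had KIT above it. Against KDR, limma called 0% of all genes and 0 of the 9 others; 2.61% of all genes and 0 of the 9 had an unadjusted p under 0.05.

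FLT1 ran from 3.19 in CAL148 through a median of 3.93 to 6.35 in SW527, and only SW527, HS739T (6.18), HS579MG (5.90) and HS362T (5.70) were above the median. Its 6 probe sets differed: 2 were not above the median in any line, and another put HS605T first, at 7.66 against 4.97 for the probe set used, with HS362T (6.84), HS739T (6.61) and HS579MG (6.35) after it. The 5 lines SW527, HS362T, HS739T, HS579MG and HS605T were the top of the probe set used and of that one. The FLT1 fit (46 low, 4 high units) called 0% of all genes and 0 of the 9 others; 9.61% of all genes and 1 of the 9 (KIT, slope -2.02, SE 1, unadjusted p = 0.0496, adjusted p = 0.517) had an unadjusted p under 0.05. This count of 0 depends on the setting: limma called 2 of the 9 and 1722 genes without the 2 most outlying units, 2 of the 9 and 2032 genes without the group term, and 0 of the 9 and 281 genes with the probe set that puts HS605T first.

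VEGFA, the ligand of FLT1 and KDR, was above the median in all 58 lines, from 9.66 to 12.34, the highest in HS605T. PGF, a ligand of FLT1, was above it in 21 lines, with 9.89 in MDAMB157. Defining endothelial genes were scattered: EMCN was above the median in 2 lines with 10.29 in HS362T, TEK reached 9.96 in HS579MG, and CDH5 9.59 in VP229, where FLT1 was 4.22 and KDR 4.04. Of the rest, PECAM1 was above the median in 27 lines with 11.36 in HCC1954 and ESAM in 37 with 9.36 in MDAMB231. ROBO4 was above it in 11 lines with 9.94 in SUM149PT. ERG, CLDN5 and VWF peaked in MFM223, MDAMB436 and MDAMB175VII, and TIE1 in HS579MG. The mean of the 10 endothelial genes was highest in HS579MG (5.99) and HS362T (5.54), 2 of the 4 lines with FLT1 above the median, against a panel median of 4.6. Their part in the FLT1 and KDR levels was not tested.

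Lines of common origin differed widely in some of these genes. MDAMB157 had PDGFRB at 12.33 and MB157 at 3.47, a difference of 8.86 on the log2 scale, and 11 of 14651 detected genes (0.0751%) differed by that much. The other 10 were COL3A1, SPOCK1, AXL, POSTN and LUM, higher in MDAMB157 as PDGFRB was, and MGST1, PROM1, GABRP, AZGP1 and ELF5, higher in MB157. KIT was high in both (12.28 in MB157 and 10.94 in MDAMB157), PDGFRA was above the median in both (10.66 and 8.25), and KITLG was higher in MDAMB157 (10.21 against 7.05). The epithelial mean was 10.89 in MB157 and 5.74 in MDAMB157, and the basal mean 10.18 and 5.55.

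The profiles of these lines were set against their names. Of the 14 lines with a partner, 13 had a partner as their nearest line by Pearson r over 14651 genes (levels less the gene's median). The exception was MDAMB157, nearest to HS578T (r = 0.46), with MB157 further down its order (rank 6, r = 0.41). MB157 was nearest to MDAMB157. Whether both stem from one culture was not tested.

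**Figure D5:**
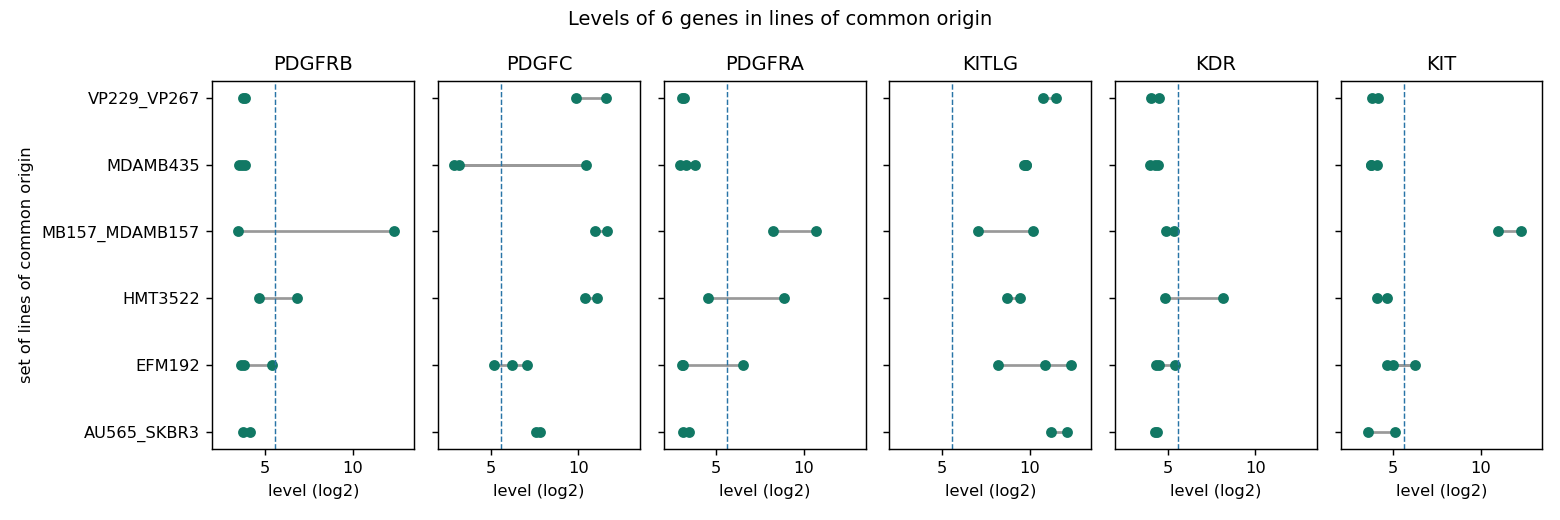
Level (log2 intensity) of 6 of the genes in the lines of each of the 6 sets of common origin, 1 point per line, joined within a set, with background dashed. The widest spans are PDGFRB in MB157 and MDAMB157 (8.86) and PDGFC in the MDAMB435 set (7.49). KIT stays within 1.60 in each set, but is at background in all these lines except MB157, MDAMB157 and EFM192C.

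In the MDAMB435 set PDGFC was 10.42 in MDAMB435S, 2.93 in M4A4 and 3.20 in NM2C5, a span of 7.49 that 17 of 14651 genes (0.116%) reached, NRP1 among them. M4A4 and NM2C5 were the only lines under 5 in PDGFC. In the HMT3522 pair, a series that began from a non-malignant breast epithelial culture, HMT3522T42 was above HMT3522S1 in PDGFRA (8.86 against 4.55), KDR (8.17 against 4.87), PDGFRB (6.83 against 4.68) and CSF1 (10.51 against 8.94). The spans of PDGFRA and KDR were reached by 0.519% and 1.29% of genes in that pair. In the EFM192 set KITLG was 12.34 in EFM192B, 10.88 in EFM192C and 8.21 in EFM192A, and PDGFRA was 6.50 in EFM192A but 3.05 and 3.12 in the others. AU565 and SKBR3 differed most in KIT (5.07 and 3.57), which was at background in both. These pairs have 1 array per line, so no test was made.

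The genes whose levels ran most like each receptor were found by Pearson r over the 50 units, pooled over low and high units, as a description of points that share a scale but no library. For PDGFRB they were CARMN (0.92), TMEM119 (0.90) and CALHM5 (0.88), with Spearman values of 0.48, 0.44 and 0.49. Without the 4 HS lines (46 units) their r was 0.81, 0.70 and 0.67. For PDGFRA they were MEDAG (0.83), BAALC (0.82) and SLIT3 (0.81), each highest in HS579MG, and without those lines 0.67, 0.64 and 0.64. For FLT1 they were KCNJ8 (0.85), MFAP4 (0.82) and NAALADL1 (0.81), each highest in an HS line, and without those lines 0.70, 0.65 and 0.59. FLT1 was then above the median in SW527 alone, so the last values rest on background levels in the other lines. KIT had only weak likenesses, INPP5B (0.53), CHODL (0.50) and SLC5A1 (0.50), as had KDR, with KCNIP3 (0.61), FPR1 (0.54) and HRAT17 (0.52), and CSF1R, with GGT5 (0.62), LY6K (0.57) and LIPG (0.56).

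Of the ligands, CSF1 ran with GLIPR1 (0.82), KIRREL1 (0.81) and NEXN (0.81), with Spearman values of 0.80, 0.79 and 0.78, so its likenesses held in rank too. PDGFA ran with HS3ST3B1 (0.57), its divergent transcript PDGFA-DT (0.56) and KLHL29 (0.52). PDGFC ran with SPTAN1 (0.62), FSCN1 (0.62) and GNAI1 (0.61), and KITLG with EID1 (0.62), GSKIP (0.60) and EMC10 (0.60), where the Spearman value for EID1 was 0.11.

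The chromosomal neighbours were read for shared levels in the same way. PDGFRA and KIT had an r of 0.12 over 50 units and KIT and KDR of 0.32, while CHIC2, which lies with GSX2 and LNX1 on the other side of PDGFRA, had an r of 0.66 with PDGFRA (0.42 without the 4 HS lines) and LNX1 one of 0.44 with KIT. CSF1R and PDGFRB had an r of 0.21. These values pool low and high units.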

How the data were processed

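Per the labels, total RNA of 58 untreated lines was amplified with a NuGEN protocol, handled in parallel in well plates and given a biotin label. The deposited table holds log2 intensities, which the authors made with RMA in Affymetrix Power Tools per the submitters' processing notes, and whose versions are not given in the sources used here. RMA corrects background, quantile-normalizes arrays and sums probes to probe sets. Whether all arrays were normalized together is not stated, and no further normalization was applied. Values ran from 1.529 to 14.77 over 52377 probe sets. Of these, 35184 named 1 gene, and 374 that named several and 16819 that named none were left out. A gene with several probe sets (8731 of 19798 genes) was given the one with the highest mean.

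Genes above the array median in at least 3 of 50 units were tested. limma 3.58.1 (trend and robust eBayes, R 4.3.3) fitted each gene's level on the level of KIT, PDGFRA, PDGFRB, CSF1R, FLT1, KDR or ESR1 or on an epithelial or basal score, over all detected genes with Benjamini-Hochberg adjustment at 0.05. Where a mixture of 2 components (mclust 6.1.1) was better than 1 component by a BIC gain above 10 and Ashman's D exceeded 2, the group was a second term. The F test among units took its error from the 6 sets. Each line had 1 array, so p-values measure the spread between lines, and the number of arrays limits the precision. The fits were tested on simulated data.

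The genes named are the 10 members, the 3 genes with the highest Pearson r for each, the measured genes of the wider receptor and ligand lists, up to 3 genes per direction of these and of the signalling list with the smallest adjusted p in the KIT, PDGFRA and PDGFRB fits, and ESR1. Marker genes named singly come from the marker lists, and they, the neighbours and the genes that differed as much as PDGFRB between MB157 and MDAMB157 were picked after their values were seen. The members and lists were chosen with earlier results of these data known. VEGFD and 4 signalling genes had no single-gene probe set. Promoter windows come from RefSeq (GRCh38.p14). The build of the probe set annotation is not stated, so no probe set positions are given, and positions and gene order are those of RefSeq.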

Additional observations from a re-analysis of the deposited data

How the results depend on the processing

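Counts are members called, then genes called. Leaving out the 4 HS lines gave 0 members and 8 genes against PDGFRA, 0 and 26 against PDGFRB, 0 and 445 against the epithelial score, 0 genes against KIT and 74 against ESR1. Leaving out HS578T too, a choice made after seeing the data, gave 0 and 11, 0 and 4, 0 and 295, 0 genes against KIT, 1 against CSF1R and 82 against ESR1. In these fits the slope of PDGFA on PDGFRA turned to -0.08 and -0.27 (adjusted p 0.989 and 0.982), and in the second DOK1 on PDGFRA turned to -0.10 and PDGFRA on the epithelial score to 0.22. Without a group term the counts were 4 and 3624 against PDGFRA, 4 and 4659 against PDGFRB, 2 and 2032 against FLT1, 4 and 4857 against the epithelial score, 1 and 661 against the basal score, 1 and 989 against ESR1, 1 gene against KDR and 0 against KIT. Such fits also count the step between low and high units.

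Without the 2 units farthest from each term's median there were 1 and 493 (PDGFRA), 1 and 294 (PDGFRB), 2 and 1722 (FLT1), and 1062 genes against the epithelial score, 25 against the basal score, 19 against ESR1, 2 against KIT and 1 against CSF1R. Leaving out HS362T, MB157 and EFM192A, whose arrays were the 3 widest, there were 1243 genes against PDGFRA, 1 member and 186 genes against PDGFRB, 83 against ESR1, 8 against CSF1R and 0 against KIT. With all 58 lines as units there were 413 genes against ESR1, 9 against KDR and 0 against KIT. Means of probe sets gave 3 of 9 members in the F test, where 5881 genes were called. They gave 1 of 8 members against PDGFRA (2402 genes), 1 of 8 against PDGFRB (972 genes), 191 genes against ESR1 and 1 gene against CSF1R. The stricter filter gave 1 member against PDGFRA and 1 against PDGFRB, since it and the mean of probe sets leave FLT1 undetected, so no FLT1 fit was run there. No filter gave 0 genes against KIT and 1 against CSF1R. Array quality as a term gave 25 against the basal score and 1 against CSF1R.

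Without the MDAMB435 set and MT3 there were 3 members in the F test, 2 against the epithelial score, 7 genes against CSF1R and 0 against KIT. Without the MDAMB435 set alone the F test called 3. Without MB157 and MDAMB157 there were 2 members against the epithelial score and 5 genes against CSF1R. The shares of all genes called are not given beside these member counts, so the member counts are a description only. Another FLT1 probe set gave 281 genes against FLT1. The cause of changes not explained here was not tested. No other alternative moved a count of calls by over 1.5 times, and none changed the sign of another slope named. No probe set was marked for cross-hybridisation, so leaving those out changed nothing. Levels under about 5.59 are near background and have no order.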
